A study of Mus musculus with 16 samples.

Results

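MiR-128 was followed in cultured mouse neurons through its 3 named mature forms, chosen by name from the 1978 miRNAs counted in 16 small RNA libraries. They are mmu-miR-128-3p, the guide strand that is loaded into Argonaute, and the 2 opposite arms, mmu-miR-128-1-5p and mmu-miR-128-2-5p, written below without the mouse prefix. The libraries came from primary cultures of perinatal mouse forebrain neurons, all transduced with a lentivirus, in 4 groups of 4. The shRNA_5bp, shRNA_2bp and shRNA groups received a small hairpin RNA that carried 5 point mutations, 2 point mutations or none, and the Empty_Vector group received the lentivirus without a hairpin. The labels name neither the target of the hairpin nor the promoter, mouse strain, culture or animal. The p-values below therefore measure the spread between these libraries, which may be technical.

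A miRNA is cut from a longer primary transcript by the Microprocessor, exported to the cytoplasm and cut again by Dicer. One strand of the resulting duplex is kept as the guide and the other is mostly degraded. MiR-128 is a brain-enriched miRNA of postmitotic neurons that dampens neuronal excitability in mice. Vector-encoded hairpins enter the same export, Dicer and Argonaute steps as the cell's own miRNAs.

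The mature sequences are shown because they set what the counts can and cannot separate. They are RefSeq sequences on GRCm38.p6, written 5′ to 3′ with the seed (bases 2 to 8) in capitals.
miR-128-3p: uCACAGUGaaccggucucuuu
miR-128-1-5p: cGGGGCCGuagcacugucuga
miR-128-2-5p: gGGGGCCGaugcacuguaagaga
miR-27a-3p: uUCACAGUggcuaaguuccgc
miR-27b-3p: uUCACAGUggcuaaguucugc
The guide was the only mouse mature miRNA of the RefSeq table with its seed. Both 5p arms had 1 seed in common, which no other mouse entry held, and they matched at 16 of the 21 positions compared from the 5′ end. MiR-27a-3p and miR-27b-3p are included because their bases 2 to 9 are the same 8 bases as bases 1 to 8 of miR-128-3p.

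The hairpins show where the reads can have come from. Both are drawn from RefSeq on GRCm38.p6, with the 5p arm and then miR-128-3p in capitals.
Mir128-1: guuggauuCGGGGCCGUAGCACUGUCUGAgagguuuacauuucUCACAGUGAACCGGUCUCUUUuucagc
Mir128-2: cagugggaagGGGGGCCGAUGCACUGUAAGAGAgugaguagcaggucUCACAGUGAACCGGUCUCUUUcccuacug
Mir128-1 lies at chr1:128202361-128202430 on the plus strand, within R3hdm1, a gene for a protein with an R3H nucleic acid-binding domain. Mir128-2 lies at chr9:112118636-112118711 on the minus strand, within Arpp21, which encodes a cAMP-regulated phosphoprotein of brain neurons. In GENCODE M21 each hairpin is on the strand of its host gene and overlaps no exon of it, so both are intronic. The guide is the same 21 bases in both hairpins, so its reads cannot be assigned to a locus, while each 5p arm is particular to its own. Folding with RNAfold gave minimum free energies of -29.3 kcal/mol for Mir128-1 and -37.3 kcal/mol for Mir128-2, with 15 and 16 guide bases paired to the 5p arm.

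Library totals ranged from 0.832 to 2.5 M counts with shRNA_5bp, 1.18 to 2.1 M with shRNA_2bp, 5.3 to 8.06 M with shRNA and 2.76 to 11.1 M with Empty_Vector, so depth moved with the group. All 5 neuronal marker miRNAs were detected in each group, at summed levels of 86500 to 90591, 103593 to 106971, 74422 to 80900 and 75551 to 79583 CPM (TMM-scaled counts per 1000000) in the same order. Most of this sum was miR-9-5p, with a mean of 95308 of 105701 CPM with shRNA_2bp. Relative to Empty_Vector, 3 of the 5 rose with shRNA_2bp and 1, miR-138-5p, fell (-0.63, edgeR adjusted p = 2e-06). Of all tested miRNAs 33.3% rose and 32.3% fell in that comparison. With shRNA_5bp 3 of the 5 rose and 0 fell, where 31.5% of all tested miRNAs rose and 26.7% fell. Of 5 microglial and leukocyte miRNAs 2, 3, 3 and 3 had a count, and their summed level was 65.7 to 86.3 CPM with shRNA_5bp, 88.7 to 104 with shRNA_2bp, 77.8 to 106 with shRNA and 51 to 61.4 with Empty_Vector. Of those 5, miR-142a-3p and miR-223-3p had no count in any library, miR-142a-5p had none with shRNA_5bp, miR-146a-5p rose with all 3 hairpins and miR-155-5p rose with shRNA alone among the 3 comparisons with Empty_Vector (2.19 on the log2 scale, edgeR adjusted p = 1.35e-07). The 3 erythroid miRNAs summed to between 178 and 246 CPM over all libraries, with miR-144-3p at 0 in every library. Of 8 vascular and fibroblast miRNAs 8, 8, 8 and 7 had a count, and their summed level was 1141 to 1363 CPM with shRNA_5bp, 1207 to 1451 with shRNA_2bp, 685 to 784 with shRNA and 723 to 824 with Empty_Vector. Of those 8, miR-145a-5p was at 0 in the Empty_Vector libraries. All 5 astroglia-leaning miRNAs were detected, at 2715 to 3001, 3988 to 4377, 2406 to 2641 and 2195 to 2511 CPM. The 3 oligodendrocyte miRNAs had mean sums of 7.7 CPM with shRNA_5bp, 11.6 with shRNA_2bp, 9.84 with shRNA and 6.76 with Empty_Vector. The neuronal list, as well as the vascular and astroglia-leaning lists, was thus higher in the groups in which miR-128-3p was lowest. The erythroid list had higher means there too, but shRNA_5bp overlapped Empty_Vector. The microglial list was higher with every hairpin than with Empty_Vector. The part of these lists in the results was not tested. Within these cultures, fewer cells of a type and less RNA per cell cannot be told apart.

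MiR-128-3p ranked first by reads in all 16 libraries and was lower with every hairpin than with Empty_Vector. As a share of all counted reads it was 27.3, 24.76, 28.1 and 23.96% in the 4 shRNA_5bp libraries. It was 25.13, 23.88, 25.26 and 24.65% with shRNA_2bp and 34.12, 32.67, 34.01 and 31.57% with shRNA. With Empty_Vector it was 38.05, 39.72, 38.24 and 38.86%. No library of the mutated hairpins reached the lowest shRNA library, and no shRNA library reached the lowest Empty_Vector library, while shRNA_5bp and shRNA_2bp overlapped. The 95% Wilson interval of each share extended at most 0.0966 percentage points to either side and covers counting error only.

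Shares of a library move when any other miRNA moves, so levels were also given after TMM scaling (trimmed mean of M values). On that scale miR-128-3p averaged 243455 ± 26645 CPM with shRNA_5bp, 240704 ± 11197 with shRNA_2bp, 331124 ± 22703 with shRNA and 427008 ± 14816 with Empty_Vector (SD, n = 4 each). It fell in each comparison with Empty_Vector by edgeR's quasi-likelihood test, with p adjusted by Benjamini-Hochberg over 483 tested miRNAs. It fell by 0.81 on the log2 scale with shRNA_5bp (SE 0.065, adjusted p = 1.42e-11), to 0.57 of the Empty_Vector level. It fell by 0.83 with shRNA_2bp (SE 0.065, adjusted p = 4.83e-12), to 0.564 of that level. It fell by 0.37 with shRNA, the smallest change of the 3 (SE 0.065, adjusted p = 4.84e-05), to 0.775 of it. All 4 libraries of each hairpin group lay below all 4 Empty_Vector libraries, which these comparisons share. Groups were separated in this direction for 23.4% of tested miRNAs with shRNA_5bp, 29.4% with shRNA_2bp and 14.7% with shRNA.

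Such falls were common. Among all tested miRNAs, 26.7% fell with shRNA_5bp, 32.3% with shRNA_2bp and 15.1% with shRNA. A lower log2 fold change than that of miR-128-3p was found for 52 of the 483 miRNAs with shRNA_5bp, 96 with shRNA_2bp and 58 with shRNA. Rises made up 54.1, 50.8 and 56.5% of all calls in these comparisons. They made up 72.7, 61.9 and 77.2% when libraries were scaled by total counts alone, which put the median log2 fold change of all tested miRNAs at 0.302, 0.195 and 0.181 in place of 0.057, 0.015 and 0.037. With no filter on low counts, over 1367 miRNAs, rises made up 38.2, 38.2 and 49% of calls and the medians were -0.276, -0.177 and 0.007.

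**Figure D1:**
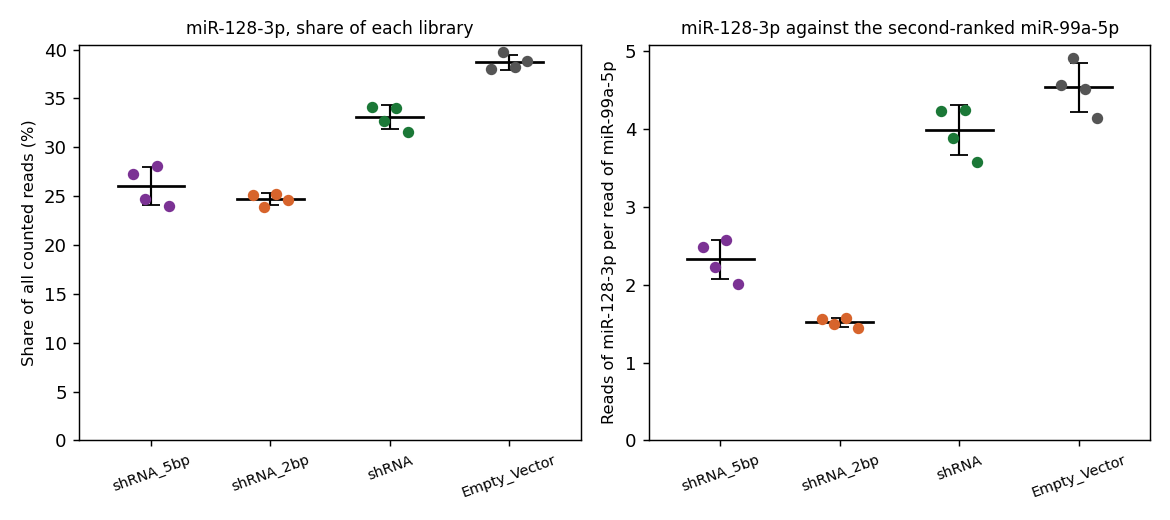
Left, share of all counted reads held by miR-128-3p (%), right, reads of miR-128-3p per read of miR-99a-5p. Points are libraries, lines are means and bars are SDs of 4 libraries per group. The share is 23.96 to 28.1% with the mutated hairpins, 31.57 to 34.12% with shRNA and 38.05 to 39.72% with Empty_Vector.

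The lead of miR-128-3p over the next miRNA was set against miR-99a-5p, which ranked next by mean share in all 4 groups. This ratio within a library does not depend on scaling. It was 2.49, 2.23, 2.57 and 2.01 with shRNA_5bp and 1.56, 1.49, 1.57 and 1.44 with shRNA_2bp. It was 4.23, 3.89, 4.25 and 3.57 with shRNA and 4.57, 4.91, 4.52 and 4.14 with Empty_Vector. The groups shRNA and Empty_Vector overlapped, whereas the mutated hairpins lay below both and apart from each other. MiR-99a-5p held 16.3 ± 0.505% of reads with shRNA_2bp and 11.2 ± 0.453% with shRNA_5bp, against 8.57 ± 0.567% with Empty_Vector, so the ratio reflects both miRNAs.

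The 5p arms were scarce. They made up 0.0211% of all miR-128 reads with shRNA_5bp, 0.0167% with shRNA_2bp, 0.021% with shRNA and 0.0188% with Empty_Vector. Of the tested miRNAs, 220 were more abundant than miR-128-2-5p and 439 more abundant than miR-128-1-5p over the 16 libraries.

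MiR-128-2-5p, the opposite arm from the Arpp21 locus, fell with both mutated hairpins, as the guide did. It stood at 50.78, 41.58, 46.02 and 38.3 CPM with shRNA_5bp, from 40 to 112 reads per library. It stood at 44.3, 38.45, 28.38 and 44.18 CPM with shRNA_2bp and 71.25, 69.16, 65.53 and 54.59 CPM with shRNA. With Empty_Vector it stood at 71.44, 84.04, 94.52 and 67.34 CPM. The shRNA_5bp and shRNA_2bp libraries all lay below the lowest shRNA library, and the shRNA and Empty_Vector libraries overlapped. Relative to Empty_Vector it fell by 0.86 on the log2 scale with shRNA_5bp (SE 0.148, edgeR adjusted p = 1.22e-05) and fell by 1.02 with shRNA_2bp (SE 0.147, adjusted p = 6.29e-07). With shRNA the difference was -0.27 ± 0.125 (SE) with adjusted p = 0.0951, and it passed the threshold without Empty_Vector library 4 (-0.39, adjusted p = 0.0293), shRNA_2bp library 3 (-0.32, adjusted p = 0.0391) or shRNA_5bp library 2 (-0.31, adjusted p = 0.0498). Without Empty_Vector library 3 it was -0.12 (adjusted p = 0.514).

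MiR-128-1-5p, the opposite arm from the R3hdm1 locus, fell with shRNA_2bp and did not pass the test with shRNA_5bp or shRNA. It had 6, 24, 4 and 9 reads in the shRNA_5bp libraries and 1, 4, 1 and 2 reads in the shRNA_2bp libraries. It had 35, 17, 31 and 31 reads in the shRNA libraries and 16, 44, 12 and 40 in the Empty_Vector libraries. Scaled for depth these were means of 6.27 ± 1.86, 1.19 ± 0.623, 4.5 ± 0.926 and 4.21 ± 0.563 CPM (SD, n = 4 each). All shRNA_2bp libraries lay below all others, and the shRNA_5bp libraries overlapped both shRNA and Empty_Vector. MiR-128-1-5p was kept for testing through the other groups, since 0 of 4 shRNA_2bp libraries reached the minimum of 3.8 CPM, against 4 of 4 with shRNA_5bp, 3 of 4 with shRNA and 2 of 4 with Empty_Vector.

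Relative to Empty_Vector, miR-128-1-5p fell by 1.74 on the log2 scale with shRNA_2bp (SE 0.449, edgeR adjusted p = 0.00125). No value was obtained when these 2 groups were fitted alone, and the filter was passed only through groups in which this arm is higher. This p-value is therefore not separate support for a fall. Summed over libraries, 8 reads with shRNA_2bp against 112 with Empty_Vector gave a ratio of 0.295 after scaling, with an exact Poisson interval of 0.124 to 0.602 for counting error. With shRNA_5bp the difference was 0.69 ± 0.307 (SE, adjusted p = 0.0577). It passed with scaling by total counts (0.93, adjusted p = 0.0109) and without shRNA_5bp library 3 (0.78, adjusted p = 0.0414), but was 0.33 (adjusted p = 0.516) without shRNA_5bp library 2, which held 24 of the 43 reads. With shRNA it was 0.11 ± 0.255 (adjusted p = 0.781), with an interval of -0.41 to 0.64.

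**Figure D2:**
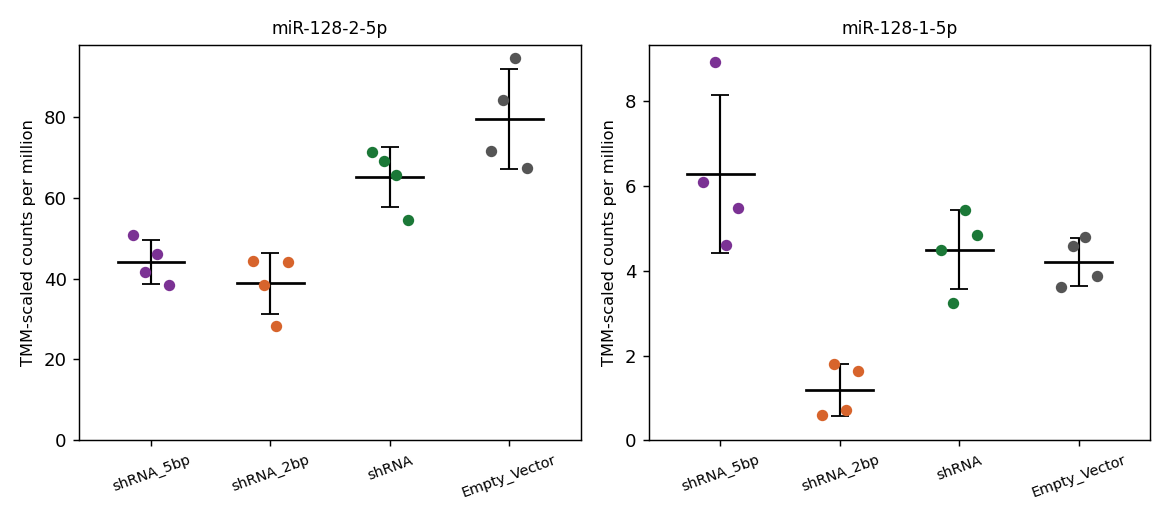
TMM-scaled CPM of miR-128-2-5p (left) and miR-128-1-5p (right), 1 point per library, with the mean and SD of 4 libraries per group. MiR-128-2-5p is lowest in both mutated-hairpin groups (28.38 to 50.78 CPM), whereas miR-128-1-5p is lowest with shRNA_2bp alone (0.5987 to 1.809 CPM).

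By count, 2 of the 3 miR-128 forms fell with shRNA_5bp, 3 with shRNA_2bp and 1 with shRNA, and none rose. Of the 3 with shRNA_2bp, 1 is the opposite arm from Mir128-1. That arm passed the count filter only through groups in which it is higher, so its call is not separate support for a fall. The forms are cut from the same precursors and are not independent, and the shares of all tested miRNAs that fell are those given above.

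Between hairpins, the guide was lower with either mutated hairpin than with the unmutated one. MiR-128-3p fell by 0.44 with shRNA_5bp relative to shRNA (SE 0.065, edgeR adjusted p = 1.36e-06), where 24.6% of tested miRNAs fell and 23.8% were separated and lower. It fell by 0.46 with shRNA_2bp relative to shRNA (SE 0.065, adjusted p = 4.47e-07), where 33.5% fell and 30.8% were separated and lower. Relative to shRNA, miR-128-2-5p fell by 0.585 with shRNA_5bp (SE 0.148, edgeR adjusted p = 0.00138) and fell by 0.75 with shRNA_2bp (SE 0.147, adjusted p = 6.71e-05). With all libraries thinned to the smallest total, the shRNA_5bp difference was -0.46 with adjusted p = 0.0674.

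The mutated hairpins differed in the few reads of miR-128-1-5p and were not told apart by the other forms. For shRNA_5bp minus shRNA_2bp the difference of miR-128-3p was 0.02 with a 95% interval of -0.12 to 0.15 on the log2 scale (edgeR adjusted p = 0.841). For miR-128-2-5p it was 0.16 with an interval of -0.18 to 0.51 (adjusted p = 0.427). MiR-128-1-5p was higher with shRNA_5bp by 2.43 ± 0.471 (SE, adjusted p = 6.39e-05), where 36.9% of tested miRNAs rose and 32.7% were separated and higher. It passed the count filter only through groups in which it is higher, since 0 of 4 shRNA_2bp libraries reached the minimum. No value was obtained when these 2 groups were fitted alone, so this p-value is not separate support for a difference. The 43 reads of miR-128-1-5p with shRNA_5bp against 8 with shRNA_2bp gave a scaled ratio of 5.65, with a counting interval of 2.63 to 13.9. Relative to shRNA, miR-128-1-5p fell by 1.86 with shRNA_2bp (SE 0.442, adjusted p = 0.000602) and differed by 0.57 ± 0.303 with shRNA_5bp (SE, adjusted p = 0.113). The shRNA_2bp p-value is likewise not separate support, since this arm passed the filter only through groups in which it is higher.

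**Figure D3:**
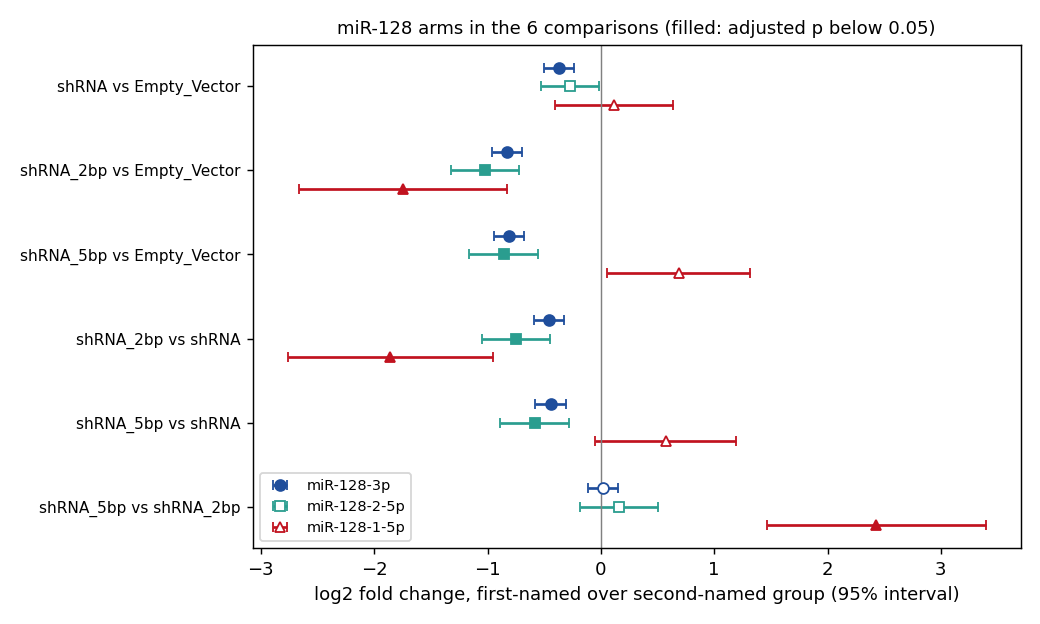
Fitted log2 fold changes of the 3 miR-128 forms in the 6 comparisons, first-named over second-named group, with 95% intervals. Filled symbols have adjusted p below 0.05. The intervals of miR-128-3p and miR-128-2-5p overlap in every comparison, though of these only miR-128-3p is filled for shRNA against Empty_Vector. MiR-128-1-5p lies at -1.74 for shRNA_2bp and 0.69 for shRNA_5bp against Empty_Vector.

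Whether guide and opposite arms moved together was asked with ratios inside a library, which need no scaling. Each library held between 4240 and 8669 reads of miR-128-3p per 5p read. The ratios were 4614, 4544, 5312 and 4867 with shRNA_5bp and 5491, 5629, 8669 and 5182 with shRNA_2bp. They were 4654, 4560, 4818 and 5048 with shRNA and 5592, 5069, 4240 and 5873 with Empty_Vector. All libraries except shRNA_2bp library 3 lay within the range of the Empty_Vector libraries. Relative to Empty_Vector the log2 ratio differed by -0.095 with shRNA_5bp (two-sided exact permutation p = 0.429, adjusted p = 0.468), 0.24 with shRNA_2bp (exact p = 0.343, adjusted p = 0.411) and -0.11 with shRNA (exact p = 0.314, adjusted p = 0.411). With shRNA_2bp it was 0.075 without that library 3. The p-values were adjusted over 12 ratio tests.

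The share of 5p reads that came from Mir128-1 separated the mutated hairpins. MiR-128-1-5p made up 10.7, 17.6, 9.09 and 12.5% of the 5p reads with shRNA_5bp and 1.33, 4.49, 2.44 and 3.57% with shRNA_2bp. It made up 5.92, 4.47, 7.65 and 8.14% with shRNA and 4.8, 5.16, 4.82 and 5.43% with Empty_Vector. Every shRNA_5bp library lay above every other library, and the shRNA_2bp libraries lay below the Empty_Vector libraries. Pooled over libraries the share was 14% with shRNA_5bp (43 of 308 reads, exact Clopper-Pearson 95% interval 10.3 to 18.3%), 3.07% with shRNA_2bp (8 of 261 reads, 1.33 to 5.95%), 6.49% with shRNA (5.38 to 7.74%) and 5.16% with Empty_Vector (4.27 to 6.17%). These intervals cover counting error only.

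On the log2 scale the ratio of miR-128-1-5p to miR-128-2-5p was higher by 1.38 with shRNA_5bp than with Empty_Vector, and by 1.02 than with shRNA. The difference of shRNA_2bp from Empty_Vector was -0.94, and that of shRNA_5bp from shRNA_2bp was 2.32. Each of these 4 separated its groups without overlap, and each had exact permutation p = 0.0286, the smallest that 4 against 4 libraries allow, and adjusted p = 0.0686. Such separation, in either direction, was also found among 8 other miRNAs from 2 loci, described below, with 0.5 added to each count. It held for 4 of the 8 with shRNA_5bp and 3 with shRNA_2bp against Empty_Vector. For shRNA_5bp it held for 3 of the 8 against shRNA and 2 against shRNA_2bp. Over the 12 ratio tests 0 passed after adjustment and 5 were below 0.05 unadjusted, the fifth being the guide ratio of shRNA_2bp against shRNA (0.36). When 0.5 was added to each count the shRNA_2bp difference from Empty_Vector was -0.57 (adjusted p = 0.147) and these groups overlapped, with 1 to 4 reads of miR-128-1-5p in each shRNA_2bp library.

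**Figure D4:**
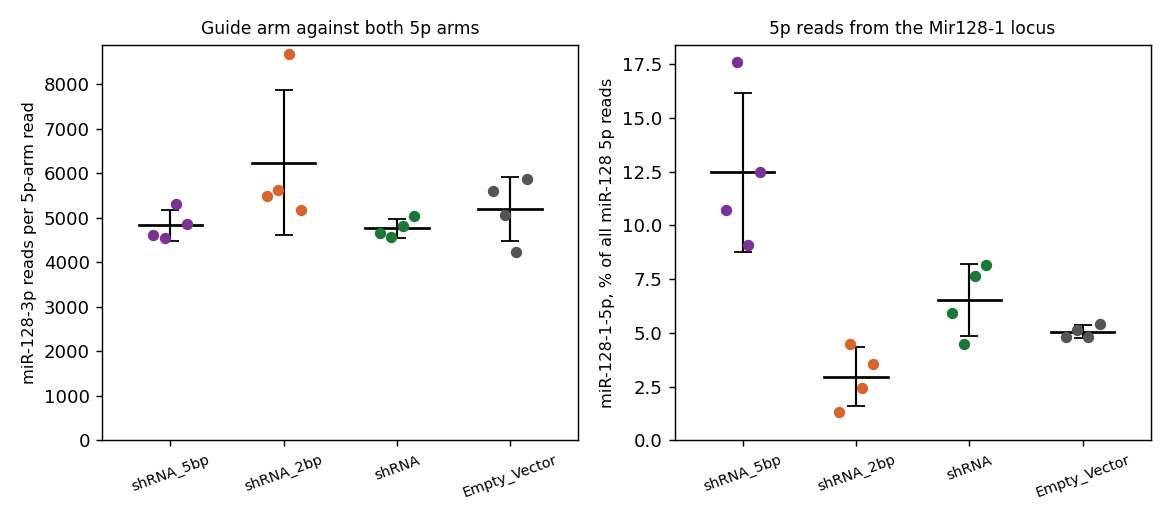
Left, reads of miR-128-3p per read of both 5p arms, right, miR-128-1-5p as a percentage of all miR-128 5p reads, 1 point per library with the mean and SD of 4 libraries. The left ratios overlap between all hairpin groups and Empty_Vector, and the right shares are 9.09 to 17.6% with shRNA_5bp and 1.33 to 4.49% with shRNA_2bp, against 4.8 to 5.43% with Empty_Vector.

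Many guides arise from 2 loci whose opposite arms can be told apart, and 19 others were listed for comparison. In 13 of them the opposite arms averaged at least 10 reads per library. Their guide-to-opposite log2 ratio changed by a median absolute value of 0.49 with shRNA_5bp, 0.58 with shRNA_2bp and 0.21 with shRNA, relative to Empty_Vector. With 0.5 added to each count, miR-128 changed by -0.105, 0.234 and -0.113, and the number of the 13 that changed more was 13, 10 and 10. For locus balance, 8 of the listed miRNAs had at least 10 mean reads of each opposite arm. The change of miR-128 with shRNA_5bp, 1.43, was larger in size than in all 8, which lay between -1.18 and 1.16. With shRNA_2bp 4 of the 8 changed more than miR-128 did, and with shRNA 5 of the 8 did. For shRNA_5bp against either other hairpin 1 of the 8, miR-135a-5p, named after its values were seen, changed more than miR-128. Its locus balance differed by 2.504 between shRNA_5bp and shRNA_2bp, where that of miR-128 differed by 2.004, and by 1.325 between shRNA_5bp and shRNA, where that of miR-128 differed by 1.082. Between shRNA_2bp and shRNA 3 of the 8 changed more than miR-128. The scarcer opposite arm averaged 17.3 reads per library for miR-128 and 13.7 for miR-135a-5p, against 43.6 to 519 for the rest of the 8. Against either other hairpin, the largest locus changes of shRNA_5bp came from the miRNAs with the fewest such reads. Against Empty_Vector miR-128 changed most, followed by miR-125b-5p (-1.176), whose scarcer opposite arm averaged 519 reads per library. MiR-135a-5p changed by 0.94 there. The part of low counts in these changes was not tested.

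The miRNAs whose levels ran most like miR-128-3p over the 16 libraries were miR-382-5p, miR-1843b-5p, miR-485-5p, miR-1843a-5p and miR-6540-5p. Likeness was the root mean square difference of log2 CPM, each miRNA centred on its own mean. It was 0.14 for miR-382-5p and 0.17 for miR-6540-5p, against a median of 0.53 over 358 candidates of at least 10 CPM. MiR-382-5p, from the imprinted Dlk1-Dio3 region, averaged 3163 CPM and had log2 fold changes of -0.52 with shRNA_5bp, -0.75 with shRNA_2bp and -0.33 with shRNA (edgeR adjusted p = 6.5e-09, 2.29e-12 and 2.91e-05). MiR-1843a-5p and miR-1843b-5p are closely related names and may share reads. MiR-128-2-5p differed from its guide by 0.21 and was nearest to miR-6540-5p (0.23), miR-382-5p (0.24) and miR-1843a-5p (0.25).

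MiR-128-1-5p differed from its own guide by 0.82 and was nearest to miR-495-3p (0.33), miR-410-3p (0.37) and miR-344f-3p (0.39). MiR-495-3p, also of the Dlk1-Dio3 region, had log2 fold changes of 0.65 with shRNA_5bp, -1.71 with shRNA_2bp and 0.36 with shRNA (edgeR adjusted p = 4.72e-09, 4.03e-18 and 0.000148).

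MiR-27b-3p, which carries the 8 bases of the miR-128-3p 5′ end shifted by 1, did not follow it. It averaged 2121 ± 68.6 CPM with shRNA_5bp, 1865 ± 26.5 with shRNA_2bp, 1475 ± 99.1 with shRNA and 1708 ± 82.1 with Empty_Vector. Relative to Empty_Vector it rose by 0.31 with shRNA_5bp (SE 0.056, edgeR adjusted p = 2.04e-05) and by 0.13 with shRNA_2bp (SE 0.056, adjusted p = 0.0465), and fell by 0.21 with shRNA (SE 0.055, adjusted p = 0.00318). MiR-27a-3p rose by 0.51 with shRNA_5bp (SE 0.158, adjusted p = 0.0111) and differed by 0.18 with shRNA_2bp and -0.21 with shRNA (adjusted p = 0.324 and 0.322).

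Other neuron-enriched miRNAs mostly rose with shRNA_5bp and shRNA and more often fell than rose with shRNA_2bp. Of 20 listed and tested, 12 rose and 2 fell with shRNA_5bp, 7 rose and 11 fell with shRNA_2bp, and 11 rose and 2 fell with shRNA. The list counts related forms separately, so its members are not all independent. Every listed arm of miR-129, and miR-7a-5p, miR-7b-5p, miR-132-3p and miR-212-3p, rose with both shRNA_5bp and shRNA. Among all tested miRNAs 31.5% rose and 26.7% fell with shRNA_5bp, 33.3% rose and 32.3% fell with shRNA_2bp, and 19.7% rose and 15.1% fell with shRNA. The medians of the list were 0.39, -0.21 and 0.28 in the same order. Scaling by total counts gave 15 rises and 1 fall with shRNA_5bp, 8 of each with shRNA_2bp, and 14 rises and 0 falls with shRNA, and with no filter shRNA_5bp gave 9 rises and 4 falls. The 2 falls with shRNA became 0 without Empty_Vector library 2 or shRNA library 1, 2 or 3, and 1 without shRNA_5bp library 1, 3 or 4. They also became 1 without shRNA_2bp library 1 or 2, and without the fourth shRNA library. The same held without Empty_Vector library 3 or 4.

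The 4 most abundant members of the list differed in pattern. MiR-9-5p, which acts in neurogenesis, averaged 81958 ± 1542 CPM with shRNA_5bp, 95308 ± 1436 with shRNA_2bp, 70727 ± 2600 with shRNA and 71133 ± 1925 with Empty_Vector. It rose by 0.20 with shRNA_5bp (edgeR adjusted p = 0.000427) and by 0.42 with shRNA_2bp (adjusted p = 5.31e-09), and the difference with shRNA was -0.01 (adjusted p = 0.917). MiR-7a-5p, enriched in neurons and neuroendocrine cells, rose by 1.94 with shRNA_5bp and 1.54 with shRNA and fell by 0.46 with shRNA_2bp (adjusted p of at most 1.69e-07 in each). MiR-129-5p, which bears on neuronal excitability, rose by 0.57 with shRNA_5bp and 0.63 with shRNA and fell by 0.38 with shRNA_2bp (adjusted p of at most 1.56e-05 in each). MiR-218-5p, known from motor neurons, had a lower mean with every hairpin, as miR-128-3p had. Unlike miR-128-3p, it overlapped Empty_Vector with shRNA_2bp and shRNA and was separated from it with shRNA_5bp alone. It fell by 0.50 with shRNA_5bp (adjusted p = 1.57e-05) and fell by 0.20 with shRNA_2bp (adjusted p = 0.0335), and with shRNA the difference of -0.21 lay at the threshold (adjusted p = 0.05 after rounding, just below it before).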

How the data were processed

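The deposited table holds raw counts of reads per mature miRNA in 16 libraries, made by the authors from 100 ng of total RNA and 15 PCR cycles with the NEBNext small RNA kit, per the labels. Per the submitters' processing notes, bcl2fastq 2.20.0.422, Trim Galore 0.6.0, cutadapt 1.15, Bowtie 1.1.1, edgeR and GRCm38.p6 were used, with no step assigned. How reads matching both miR-128 hairpins were counted, and the miRNA annotation release, are not given in the sources used here. Reads carried no molecular identifiers, and adapter ligation favours some sequences, so levels of different miRNAs are not molar amounts.

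The 16 libraries were fitted together in edgeR 4.0.16 (R 4.3.3) with TMM scaling, filterByExpr and a robust quasi-likelihood test, adjusted by Benjamini-Hochberg over 483 miRNAs at a threshold of 0.05. Library totals are 0.832 to 11.1 M counts. Alternatives were DESeq2 1.42.0, other scalings and filters, thinning, fits of the 2 groups compared, a replicate block and leaving out libraries. Hairpins were folded with RNAfold 2.7.2. Replicates of a group differed by more than sampling noise (chi-square per degree of freedom of at least 3.99).

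Replicate numbers come from the sample titles. Libraries of the same number deviated together for shRNA against Empty_Vector (correlations 0.111 to 0.282 over 360 miRNAs) and for shRNA_2bp against shRNA (0.166 to 0.198), all above 0.1, so in these comparisons the numbers count as pairs. The fits reported carry no replicate term, the fit with a replicate block is an alternative, and the ratio tests are unpaired. The exact p-values of the ratios in these paired comparisons therefore ignore the pairing, and no paired version was run. Among the ratios below 0.05 before adjustment, this touches the guide ratio of shRNA_2bp against shRNA. The members and lists were chosen with earlier results of these data known. Named miRNAs are the 3 forms, the nearest in pattern (5 for the guide, 3 for each 5p arm), miR-27a-3p and miR-27b-3p. They also include the runner-up by abundance and the 4 most abundant neuron-enriched list members. MiR-125b-5p, miR-135a-5p, miR-138-5p, miR-146a-5p, miR-155-5p and the related forms in the neuron-enriched list were named after their values were seen.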

Additional observations from a re-analysis of the deposited data

Results flagged for a closer look

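A single library stood far from the other 3 of its group in 2 of 20 checks (3 miR-128 levels and 2 ratios in each of 4 groups), where chance gives about 1 in 20. MiR-128-3p was higher in Empty_Vector library 2 (449163 CPM) than in the others (418175 to 421055 CPM), a gap of 0.904 of the range on the log2 scale. The guide-to-5p ratio was higher in shRNA_2bp library 3 (8669) than in the others (5182 to 5629), a gap of 0.839 of the range. That library had 40 reads of miR-128-2-5p and 1 of miR-128-1-5p.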

How the results depend on the processing

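Over 8 other settings, 134 of 136 values of the 3 forms kept their side of the threshold, and 284 of 288 did when 1 library was left out. Differences that passed kept their direction. The difference of miR-128-3p between shRNA_5bp and shRNA_2bp, which did not pass, ranged from -0.138 to 0.074 and so changed sign. The log2 fold change of miR-128-3p against Empty_Vector ranged from -1.044 to -0.573 with shRNA_5bp, -0.931 to -0.647 with shRNA_2bp and -0.41 to -0.226 with shRNA over those settings. For shRNA_5bp against Empty_Vector, miR-128-1-5p was 0.934 with library-size scaling, and 0.333 to 0.781 with 1 library left out. For shRNA_5bp against shRNA, miR-128-2-5p was -0.458 in thinned libraries, which hold fewer reads. For shRNA against Empty_Vector, miR-128-2-5p was -0.387 to -0.123 with 1 library left out. The replicate block changed no call of the 3 forms (miR-128-3p -0.371, adjusted p = 2.39e-07 by edgeR, for shRNA against Empty_Vector). With the 5p arm of miR-128-1 alone, the log2 guide ratio differed by -1.357 (shRNA_5bp against Empty_Vector), 1.153 (shRNA_2bp against Empty_Vector), 1.602 (shRNA_2bp against shRNA) and -2.511 (shRNA_5bp against shRNA_2bp). It turned to -0.908 for shRNA_5bp against shRNA, each with adjusted exact permutation p = 0.0381. That ratio leaves out most 5p reads, and its divisor is 1 to 4 reads in each shRNA_2bp library. MiR-128-1-5p failed the count filter in thinned libraries, and in fits of the 2 groups alone for shRNA_2bp against Empty_Vector and shRNA_5bp against shRNA_2bp, so no value was obtained there. Of the 3 forms, miR-128-1-5p had the fewest reads, with 1 to 4 per shRNA_2bp library, so counting error limits it most.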
